A study of Mus musculus with 4 samples.

Results

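The MAP kinase cascade genes described here are the rows of a mouse gene expression table whose symbol begins with Mapk, Map2k, Map3k or Map4k. The rule found 45 genes among the 11111 of the table. Of these, 43 were counted as kinases, kinase-binding proteins or scaffolds of the ERK, JNK and p38 pathways. Map3k14 (NIK), among the 43, is known mainly for NF-kappaB signalling. The other 2, Mapkap1 (a subunit of mTOR complex 2) and Map2k3os (an antisense transcript beside Map2k3), match by name only and are kept in the counts. The rule uses names and no measured values, though it was set with earlier results of these data known. A further 11 symbols of these families, Mapk4, Mapk10, Mapk12, Mapk13, Mapk15, Map3k13, Map3k19, Map3k21, Map4k6, Mapk8ip2 and Map3k7cl, are not in the table. Map4k6 is another symbol of Mink1, which is in the table, is not matched by the rule and is described with the pathway lists. The rest were not analysed here.

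The cells were macrophages grown for 7 days from the marrow of wild-type C57BL/6 mice, with fresh medium on day 4. They received either a control morpholino (Ctrl MO, 2 libraries) or Regnase-1-targeting morpholinos (Reg1-MOs, 2 libraries), in both cases at 2 µM for 24 hours with the delivery peptide Endoporter at 6 µl/ml. Morpholinos are antisense oligomers that bind a chosen RNA. Every culture was then given lipopolysaccharide (LPS, a component of the bacterial outer membrane) at 10 ng/ml for 4 hours, so the comparison is between LPS-treated groups and holds no measure of the LPS response itself. The labels name a pair of targeting morpholinos, MO1 and MO2, and the Reg1-MOs columns carry those names. Whether each library received 1 of them or both is not settled there. Nor do the labels say whether replicates were separate cultures or mice, so p-values here reflect only how much these 4 libraries vary, and that variation may be technical.

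MAP kinase cascades pass a signal down tiers of kinases. MAP4Ks and receptor-bound adaptors activate MAP3Ks, which phosphorylate MAP2Ks, which phosphorylate a MAP kinase on threonine and tyrosine. The MAP kinases then act on transcription factors and on further kinases such as the MAPKAP kinases. In macrophages sensing LPS through Toll-like receptor 4, TAK1 (Map3k7) feeds the JNK and p38 arms, and TPL2 (Map3k8) feeds the ERK arm through MEK1 and MEK2. The p38 arm acts through the MAPKAP kinases on proteins that bind AU-rich elements and thereby controls how long cytokine mRNAs last. Regnase-1, encoded by Zc3h12a, is an endonuclease that cleaves mRNAs at stem-loops of the 3′ UTR. The data are mRNA levels and hold no measure of kinase activity or phosphorylation.

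Libraries held 23369753 to 25213695 reads over the genes of the table, with a median of 404 to 437 reads per gene. Zc3h12a mRNA, from the targeted gene, was read 3407 and 3572 times in the Ctrl MO libraries and 7799 and 6753 times in the Reg1-MOs libraries, a log2 fold change of 1.10 (limma adjusted p = 0.00040). A morpholino does not need to lower the mRNA it binds, so this value does not measure how much protein was left. Cell type markers were called at a limma adjusted p under 0.05, which 12.2% of all genes passed. All 9 macrophage markers looked for were in the table, and none of the 7 dendritic cell markers was. With Reg1-MOs, 1 macrophage marker was higher (Cd68) and 2 were lower (Itgam and Lyz2). The macrophage list's median log2 fold change was -0.09, with 6 of 9 values negative. Its summed level was 21130 and 21025 scaled reads in the Ctrl MO libraries against 19277 and 19179 in the Reg1-MOs libraries. Of 8 neutrophil markers 7 were in the table and of 10 lymphocyte markers 2, with 0 called, and of 8 mast cell and basophil markers only Kit, which was lower. Of 12 stromal and fibroblast markers 9 were in the table, and all 9 were lower with Reg1-MOs, their summed level being 210 and 215 scaled reads in the Ctrl MO libraries against 84.8 and 95.3 in the Reg1-MOs libraries. The part of these cells in the results below was not tested. In such bulk samples, fewer cells of a type and less RNA per cell cannot be told apart.

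Of the 45 cascade genes, 2 rose with Reg1-MOs and 0 fell at an adjusted p under 0.05 (limma, adjusted over the 11111 genes). Both lie on the p38 arm. They are Map2k3, which encodes the p38-activating kinase MKK3, and Mapkapk3, which encodes MK3, a kinase activated by p38. Over all genes 12.2% passed the threshold, with 6.22% higher and 6.03% lower, against 4.44% of the cascade genes. At an unadjusted p under 0.05 there were 10 cascade genes (22.2%), 6 higher and 4 lower, beside 29.4% of the table. Voom weights on the recovered reads gave the same 2 genes higher and 0 lower. With replicate number as a block, limma called 7 cascade genes higher and 5 lower, beside 1532 and 1891 over the table. The labels do not say that a replicate number marks anything shared between the groups. Fitted without the mean-variance trend, or on leaving out either Ctrl MO library or Reg1-MOs replicate 1, limma called 0 cascade genes in either direction. The median log2 fold change was 0.03 over the cascade genes and -0.03 over all genes, and its median size was 0.14 against 0.17. Positive values were found for 25 cascade genes and negative ones for 20, beside 5068 and 6043 over all genes.

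Both Reg1-MOs libraries lay above both Ctrl MO libraries for 16 cascade genes (35.6%, beside 27.1% of the table). Both lay below for 8 (17.8%, beside 31.8%), and for 21 the groups overlapped. Among the 41 cascade genes averaging 50 reads or more, log2 fold changes ran from -0.36 to 0.43. The 4 others, Map2k6, Map3k12, Mapk8ip1 and Map2k3os, held the extremes of -0.78 (Map2k6) and 0.81 (Mapk8ip1). Of the 43 cascade genes that did not pass, 30 had a 95% interval lying wholly within a 1.5-fold change either way, and 40 within a 2-fold change. Over the whole table, 9750 genes did not pass, of which 6936 lay within 1.5-fold and 8748 within 2-fold.

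**Figure D1:**
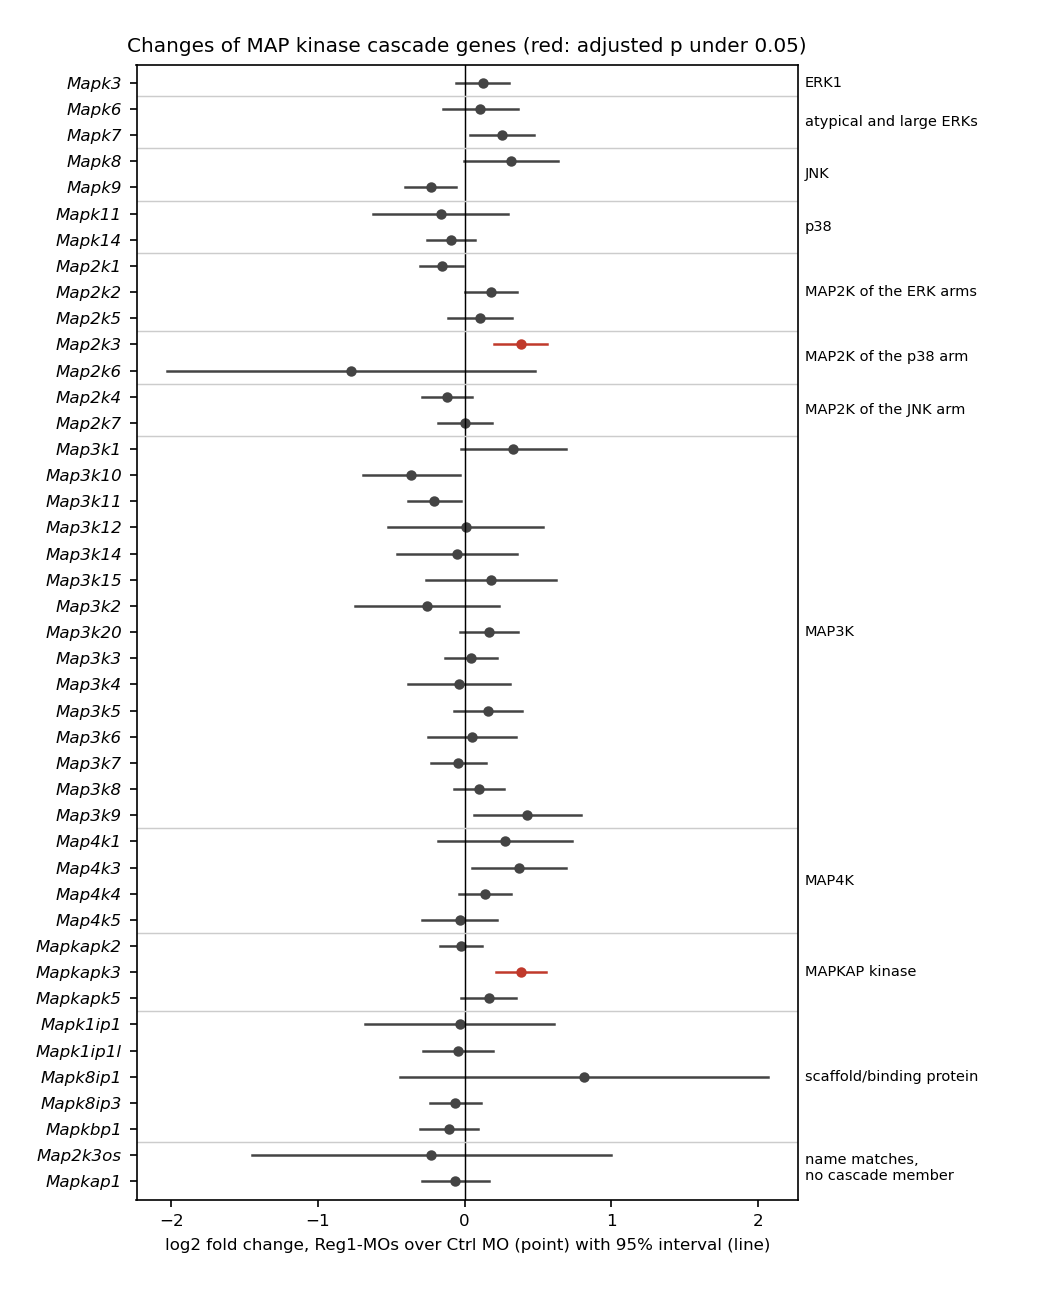
Log2 fold change of the cascade genes reported singly (horizontal axis, Reg1-MOs over Ctrl MO, 2 libraries per group; points) with its 95% interval from limma (lines), grouped by role. The intervals of Map2k3 and Mapkapk3, in red, passed an adjusted p of 0.05, and the widest intervals belong to genes with few reads such as Map2k6 and Mapk8ip1.

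**Figure D2:**
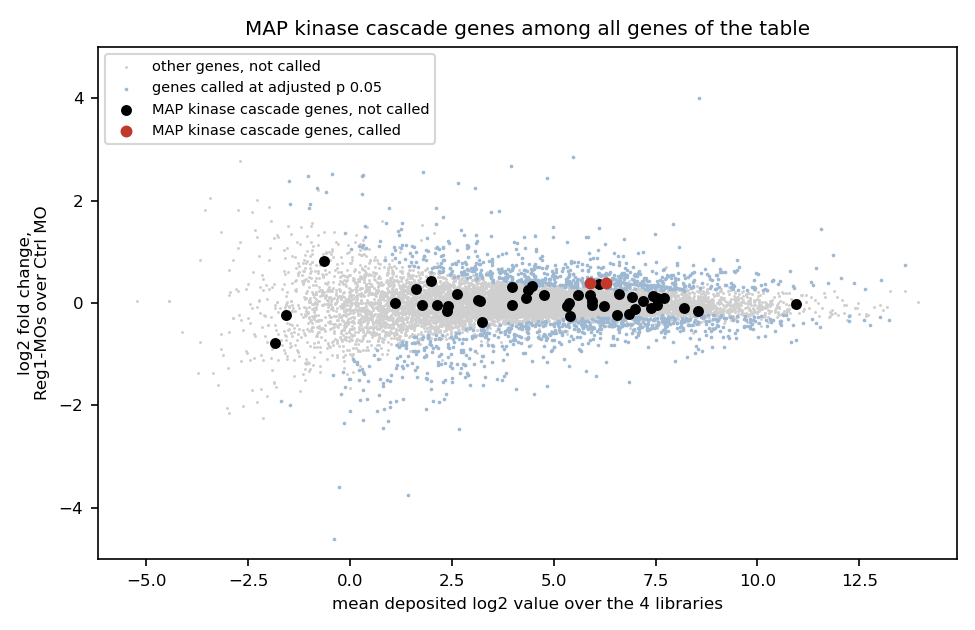
Log2 fold change of every gene (vertical axis, Reg1-MOs over Ctrl MO) against its mean deposited log2 value over the 4 libraries (horizontal axis), with the cascade genes as large points. The cascade genes lie in the middle of the cloud, Mapkapk2 is the most abundant of them at the far right, and the 2 that passed are in red.

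The sequences before the start sites of the 2 genes that rose are shown because these are the cascade genes whose mRNA level passed the test. They are RefSeq windows on GRCm38.p6, each 300 bases, with 250 before and 50 after the annotated start, 5′ to 3′ on the gene's own strand. Capitals mark every match, on either strand, to 7 short motifs. These were an AP-1 site (TGANTCA), a short CRE site (TGACG), an NF-kappaB-like site (GGGNNNNNCC), the core of the antioxidant response element (TGACNNNGC), an E-box (CACGTG), a GC box (GGGCGG) and a CCAAT box (CCAAT). GC box and NF-kappaB-like matches can overlap. Map2k3 has 1 annotated start, with its window at chr11:60931804-60932103 on the plus strand.
Map2k3: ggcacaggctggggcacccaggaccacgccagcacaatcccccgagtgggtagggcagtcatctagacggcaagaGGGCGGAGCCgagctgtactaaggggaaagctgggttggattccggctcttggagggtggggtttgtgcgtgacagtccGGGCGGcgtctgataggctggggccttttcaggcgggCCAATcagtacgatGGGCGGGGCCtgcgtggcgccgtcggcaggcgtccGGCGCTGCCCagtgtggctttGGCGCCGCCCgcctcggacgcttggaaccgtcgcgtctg
Mapkapk3 has 2 annotated starts on the minus strand, the first with its window at chr9:107289828-107290127.
Mapkapk3 start 1: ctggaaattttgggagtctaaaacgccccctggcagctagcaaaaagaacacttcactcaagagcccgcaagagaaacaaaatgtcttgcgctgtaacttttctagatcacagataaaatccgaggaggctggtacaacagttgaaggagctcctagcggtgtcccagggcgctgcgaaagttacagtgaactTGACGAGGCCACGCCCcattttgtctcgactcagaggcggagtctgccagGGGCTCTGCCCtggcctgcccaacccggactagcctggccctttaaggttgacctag
The window of the second start lies at chr9:107289347-107289646.
Mapkapk3 start 2: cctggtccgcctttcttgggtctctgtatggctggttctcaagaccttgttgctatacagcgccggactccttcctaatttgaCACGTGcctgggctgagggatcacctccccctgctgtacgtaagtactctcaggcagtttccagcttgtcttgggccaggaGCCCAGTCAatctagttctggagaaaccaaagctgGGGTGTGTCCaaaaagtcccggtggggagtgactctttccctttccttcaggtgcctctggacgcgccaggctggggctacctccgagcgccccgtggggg

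The Map2k3 window was 68% G and C and held 4 GC boxes, 4 NF-kappaB-like matches and 1 CCAAT box, with no match to the other 4 motifs. The first Mapkapk3 window was 53.7% G and C and held 3 NF-kappaB-like matches, 1 short CRE site and 1 antioxidant element core. The second was 58.3% G and C and held 1 NF-kappaB-like match, 1 antioxidant element core and 1 E-box. Among all 32851 RefSeq windows, 50.8% held an NF-kappaB-like match, 35.7% a GC box and 12.4% an antioxidant element core, so these letters are common. A match is a description of the letters and not a bound site.

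Of the 45 cascade genes 37 had a RefSeq window, 50 windows in all, with a median of 64.3% G and C. The 11430 windows of genes in the table had a median of 60.7%. GC boxes were in 62% of cascade windows and 63% of the table's windows, CCAAT boxes in 30% and 37.5%, short CRE sites in 34% and 31.4%, E-boxes in 6% and 10.2%, and AP-1 sites in 6% and 5.07%. NF-kappaB-like matches were in 78% of cascade windows against 67.2%, and the antioxidant element core in 34% against 14.5%. Windows of 1 gene can overlap, so the last of these was also counted per gene, giving 13 of 37 cascade genes (35.1%) and 17.3% of the 8966 table genes with a window. The median log2 fold change of those 13 cascade genes was 0.11. This motif was singled out after the shares were seen, and none of them was tested.

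Within the p38 arm, Map2k3 (ENSMUSG00000018932; GRCm38 chr11:60932033-60952811, plus strand) had 65.6 and 69.8 scaled reads in the Ctrl MO libraries and 91.3 and 85.1 in the Reg1-MOs libraries. The scaled reads are 2 to the power of the deposited value, which puts the libraries on the authors' common scale. Both Reg1-MOs libraries were higher than both Ctrl MO libraries. The log2 fold change was 0.38 (SE 0.078, 95% interval 0.20 to 0.56; limma adjusted p = 0.021), or 1.30-fold. Leaving out a single library ended the call in 3 cases, with an adjusted p of 0.18 for Ctrl MO replicate 1, 0.072 for Ctrl MO replicate 2 and 0.088 for Reg1-MOs replicate 1, as did a fit with no variance trend (0.10), while the log2 fold change stayed between 0.33 and 0.43.

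Mapkapk3 (ENSMUSG00000032577; GRCm38 chr9:107254927-107289877, minus strand) had 51.8 and 51.3 scaled reads in the Ctrl MO libraries and 68.1 and 66.4 in the Reg1-MOs libraries. The Reg1-MOs libraries were again both above the controls, and the gap between replicates was small in each group. Its log2 fold change was 0.38 (SE 0.074, 95% interval 0.21 to 0.56; limma adjusted p = 0.017), or 1.30-fold. Leaving out Ctrl MO replicate 1, Ctrl MO replicate 2 or Reg1-MOs replicate 1 ended this call too (adjusted p = 0.11, 0.14 and 0.065), as did dropping the variance trend (0.079), with the log2 fold change between 0.37 and 0.40. The genes around these loci did not pass the test. Within 100000 bases, 0 of 4 neighbours of Map2k3 were called by limma (log2 fold changes -0.23 to 0.27, lowest adjusted p = 0.18). For Mapkapk3 it was 0 of 2 neighbours (-0.22 for Cish and -0.08 for Hemk1, lowest adjusted p = 0.16). Over all genes 12.2% passed, so so few neighbours do not tell whether a change is local. Some had few reads, with a mean of 6 for Map2k3os, which is also among the 45.

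The paralogs of these genes did not pass. Map2k6 encodes MKK6, the other dedicated p38 activator, and was read only 6 and 7 times in the Ctrl MO libraries and 3 and 4 times in the Reg1-MOs libraries. Its log2 fold change was -0.78 with a 95% interval from -2.03 to 0.48 (limma adjusted p = 0.38), so neither a fall nor a rise was detectable at this depth. Levels per kilobase here divide by all annotated exons of a gene, used in these cells or not, so ratios between genes depend on those lengths. Per kilobase of exon, Map2k3 stood at 20.4 ± 0.90 (SD, n = 2) scaled reads in Ctrl MO and 26.6 ± 1.31 in Reg1-MOs. Map2k6 stood at 0.107 ± 0.011 and 0.063 ± 0.015. Map2k3 therefore supplied nearly all of the dedicated p38 MAP2K mRNA in every library.

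Mapkapk2 encodes MK2, the kinase best known for stabilising Tnf and other AU-rich mRNAs. It had 2017 and 1953 scaled reads in the Ctrl MO libraries and 1979 and 1924 in the Reg1-MOs libraries. The groups overlapped, and the log2 fold change was -0.02 (95% interval -0.17 to 0.12; limma adjusted p = 0.83). The ratio of Mapkapk2 to Mapkapk3 per kilobase was 71.0 and 69.3 in the Ctrl MO libraries and 53.0 and 52.8 in the Reg1-MOs libraries. Its size rests on annotated exon lengths of 3041 and 5542 bases, and the ratio of reads is smaller. Mapkapk5, encoding the related kinase PRAK, had 47.2 and 44.6 in the Ctrl MO libraries and 52.5 and 50.2 in the Reg1-MOs libraries, a log2 fold change of 0.16 (adjusted p = 0.22).

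The p38 kinases themselves showed no call. Mapk14, which encodes p38 alpha, the main p38 isoform of macrophages, had 173.2 and 173.7 scaled reads in the Ctrl MO libraries and 169.5 and 156.0 in the Reg1-MOs libraries. Both Reg1-MOs values were lower, by less than the test resolves, with a log2 fold change of -0.09 (95% interval -0.26 to 0.07; limma adjusted p = 0.43). Mapk11, encoding p38 beta, was at 5.74 and 5.27 against 5.91 and 4.08, overlapping between groups. Per kilobase, Mapk14 exceeded Mapk11 18.9- to 25.2-fold over the 4 libraries.

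**Figure D3:**
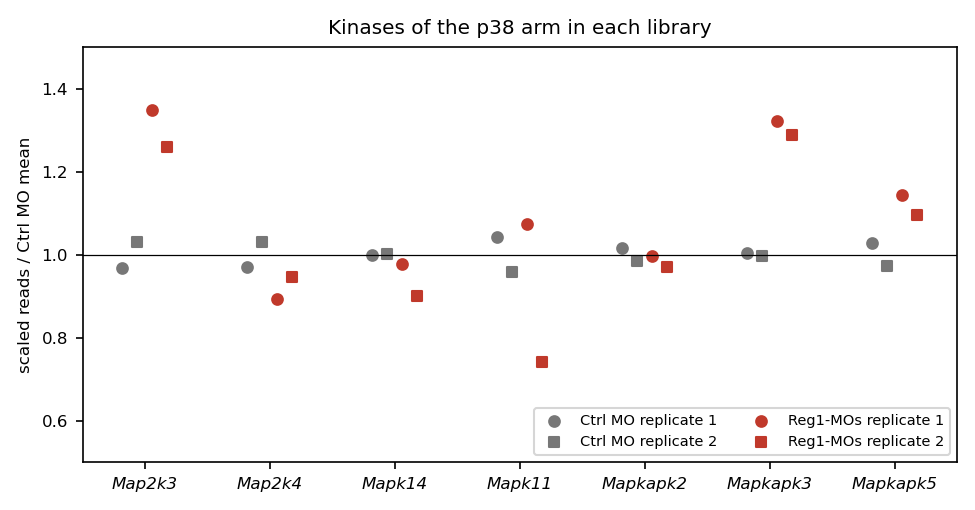
Scaled reads of 7 kinases of the p38 arm in each library, divided by the gene's own Ctrl MO mean (vertical axis starting at 0.5; horizontal line at 1). Map2k3 and Mapkapk3 lie above all controls in both Reg1-MOs libraries, Mapkapk2 overlaps them, and Map2k6 is left out because it had at most 7 reads.

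The JNK arm has a pair of MAP2Ks and a pair of JNK genes in the table. Mapk9, encoding JNK2, had 101 and 103 scaled reads in the Ctrl MO libraries and 83.9 and 90.2 in the Reg1-MOs libraries. Both Reg1-MOs values were below both controls. The log2 fold change of -0.23 (95% interval -0.40 to -0.06) missed the threshold (limma adjusted p = 0.083). Mapk8, encoding JNK1, had 12.5 and 15.9 in the Ctrl MO libraries and 16.7 and 18.3 in the Reg1-MOs libraries. Here both Reg1-MOs values were above both controls, with a log2 fold change of 0.32 (95% interval 0.00 to 0.63; adjusted p = 0.17). The ratio of Mapk9 to Mapk8 per kilobase was 13.69 and 10.97 in the Ctrl MO libraries and 8.45 and 8.34 in the Reg1-MOs libraries. With annotated exon lengths of 6784 and 11444 bases, the ratio of reads is smaller. That pair of opposite values was picked out after it was seen, and the difference between the genes was not tested.

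Map2k4 encodes MKK4, which phosphorylates JNK and can also phosphorylate p38. It had 130 and 138 scaled reads in the Ctrl MO libraries and 120 and 126 in the Reg1-MOs libraries, a log2 fold change of -0.12 (limma adjusted p = 0.31). Map2k7, encoding the JNK-specific MKK7, was at 40.5 and 41.8 in either group, with a log2 fold change of 0.00 (95% interval -0.18 to 0.19; adjusted p = 0.99).

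In the ERK arm no gene passed in the fit with group alone. Mapk3 (ERK1) had 119 and 115 scaled reads in the Ctrl MO libraries and 134 and 121 in the Reg1-MOs libraries. Both Reg1-MOs values were above both controls. The log2 fold change was 0.12 (95% interval -0.06 to 0.31; limma adjusted p = 0.34).

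Map2k1 (MEK1), a direct activator of ERK1, had 398 and 386 scaled reads in the Ctrl MO libraries and 348 and 356 in the Reg1-MOs libraries. Its paralog Map2k2 (MEK2) had 94.5 and 88.4 against 107 and 99.9. For Map2k1 both Reg1-MOs libraries were lower and for Map2k2 both were higher. The log2 fold changes were -0.16 (95% interval -0.30 to -0.01; limma adjusted p = 0.14) and 0.18 (0.00 to 0.36; adjusted p = 0.17). Per kilobase the Map2k1 to Map2k2 ratio was 7.03 and 7.30 in the Ctrl MO libraries and 5.42 and 5.95 in the Reg1-MOs libraries. The annotated exon lengths behind it are 3391 and 5663 bases, so the ratio of reads is smaller. In the ERK5 branch, Mapk7 (ERK5) had 18.8 and 18.7 against 21.8 and 23.2, a log2 fold change of 0.26 (adjusted p = 0.12), and its activator Map2k5 changed by 0.11 (adjusted p = 0.49). Mapk6, encoding the atypical kinase ERK3, overlapped between groups.

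Among the MAP3Ks, 0 of the 15 in the table passed in limma and 3 had an unadjusted p under 0.05 (12.2% and 29.4% over all genes), with 9 log2 fold changes above 0 and 6 below. Map3k8 encodes TPL2, which links the IKK complex to MEK1 and ERK. It had 177 and 183 scaled reads in the Ctrl MO libraries and 183 and 201 in the Reg1-MOs libraries. The lower Reg1-MOs value was level with the higher control, and the log2 fold change was 0.10 (95% interval -0.07 to 0.27; limma adjusted p = 0.42). Map3k7, encoding TAK1, had 60.6 and 64.0 against 58.1 and 62.8, overlapping, with a log2 fold change of -0.04 (95% interval -0.23 to 0.14; adjusted p = 0.76). Map3k5 encodes ASK1, the MAP3K activated by oxidants, and had 53.4 and 59.8 against 58.9 and 68.0. The groups overlapped there too, with a log2 fold change of 0.16 (95% interval -0.07 to 0.39; adjusted p = 0.32).

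The mixed-lineage kinases, MAP3Ks that can activate JNK, were named after their values were seen. Map3k9 (MLK1), a gene of low level with 64 and 66 reads in the Ctrl MO libraries and 93 and 78 in the Reg1-MOs libraries, had the largest log2 fold change among cascade genes with at least 50 reads, 0.43 (limma adjusted p = 0.12). Map3k10 (MLK2) had the lowest, at -0.36 (adjusted p = 0.14), with 11.9 and 9.63 scaled reads against 8.75 and 7.91. Map3k11 (MLK3), by far the most abundant of the 3 per kilobase, had 127 and 123 against 113 and 103, a log2 fold change of -0.21 (adjusted p = 0.12). None of the 3 passed, and their groups did not overlap, as held for 58.9% of all genes.

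Spread between Reg1-MOs replicates was large for some MAP3Ks and MAP4Ks. Map3k2, encoding MEKK2, was at 44.1 and 48.0 scaled reads in the Ctrl MO libraries but at 29.7 and 49.8 in the Reg1-MOs libraries, a gap of 0.75 on the log2 scale between replicates. Without Reg1-MOs replicate 2 it fell by 0.63 on the log2 scale (limma adjusted p = 0.034), whereas leaving out the other Reg1-MOs library gave 0.12. Map4k3, encoding the nutrient-sensing kinase GLK, was at 57.9 and 64.1 against 67.9 and 91.5, with a log2 fold change of 0.37 (adjusted p = 0.12). Both Reg1-MOs libraries were higher there, replicate 2 far more so. Over the cascade genes the median gap between replicates was 0.087 on the log2 scale in Ctrl MO and 0.13 in Reg1-MOs, beside 0.093 and 0.15 over all genes.

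Among other MAP4Ks, Map4k1 (HPK1), Map4k4 (HGK) and Map4k5 had log2 fold changes of 0.27, 0.14 and -0.03. Mink1 (Map4k6), a MAP4K whose symbol the rule does not match, rose by 0.71 (limma adjusted p = 0.0027) and is described below. Of the 5 MAP4Ks under the rule, 0 passed in limma and 1 (Map4k3) had an unadjusted p under 0.05. Over all genes the shares were the same 12.2% and 29.4%. The scaffolds and binding proteins also showed no call. Mapk8ip3 (JIP3), which carries JNK modules along microtubules, had a log2 fold change of -0.06, and Mapkbp1, a JNK-binding protein, one of -0.10. Mapk8ip1 (JIP1) was read 15 and 5 times in the Ctrl MO libraries and 13 and 18 times in the Reg1-MOs libraries, too few to show a direction. For several cascade genes another gene of the table overlaps the locus. Pcnx3 at Map3k11, Pcbp2 at Map3k12, Pdha1 at Map3k15 and Atl1 at Map4k5 lie on the opposite strand. The strand setting of the counting is not given in the sources used here, so such reads may be shared. Eme2 at Mapk8ip3 and Adam1a at Mapkapk5 lie on the same strand, where no strand setting separates overlapping reads.

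Levels of the 45 genes spanned a wide range per kilobase of exon. In Ctrl MO, Mapkapk2 stood at 653 ± 14.9 (SD, n = 2) scaled reads per kilobase. On the mean of the 4 libraries it was above 99.3% of the genes in the table. It alone took 37.3% to 39.7% of the reads of all cascade genes in each library. Map2k1 came next at 116 ± 2.4, then Mapk3 at 51.8 ± 1.4. Map3k8, Mapkbp1 and Mapk14 followed at 39.9 ± 0.94, 40.3 ± 1.7 and 39.6 ± 0.066, whose order cannot be told apart in Ctrl MO. Of the 45, 19 were above 10 on the mean of the 4 libraries and 7 were below 1. All cascade genes together took 0.386% to 0.394% of the reads of the table, with Reg1-MOs at 0.394% and 0.392% and Ctrl MO at 0.389% and 0.386%.

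**Figure D4:**
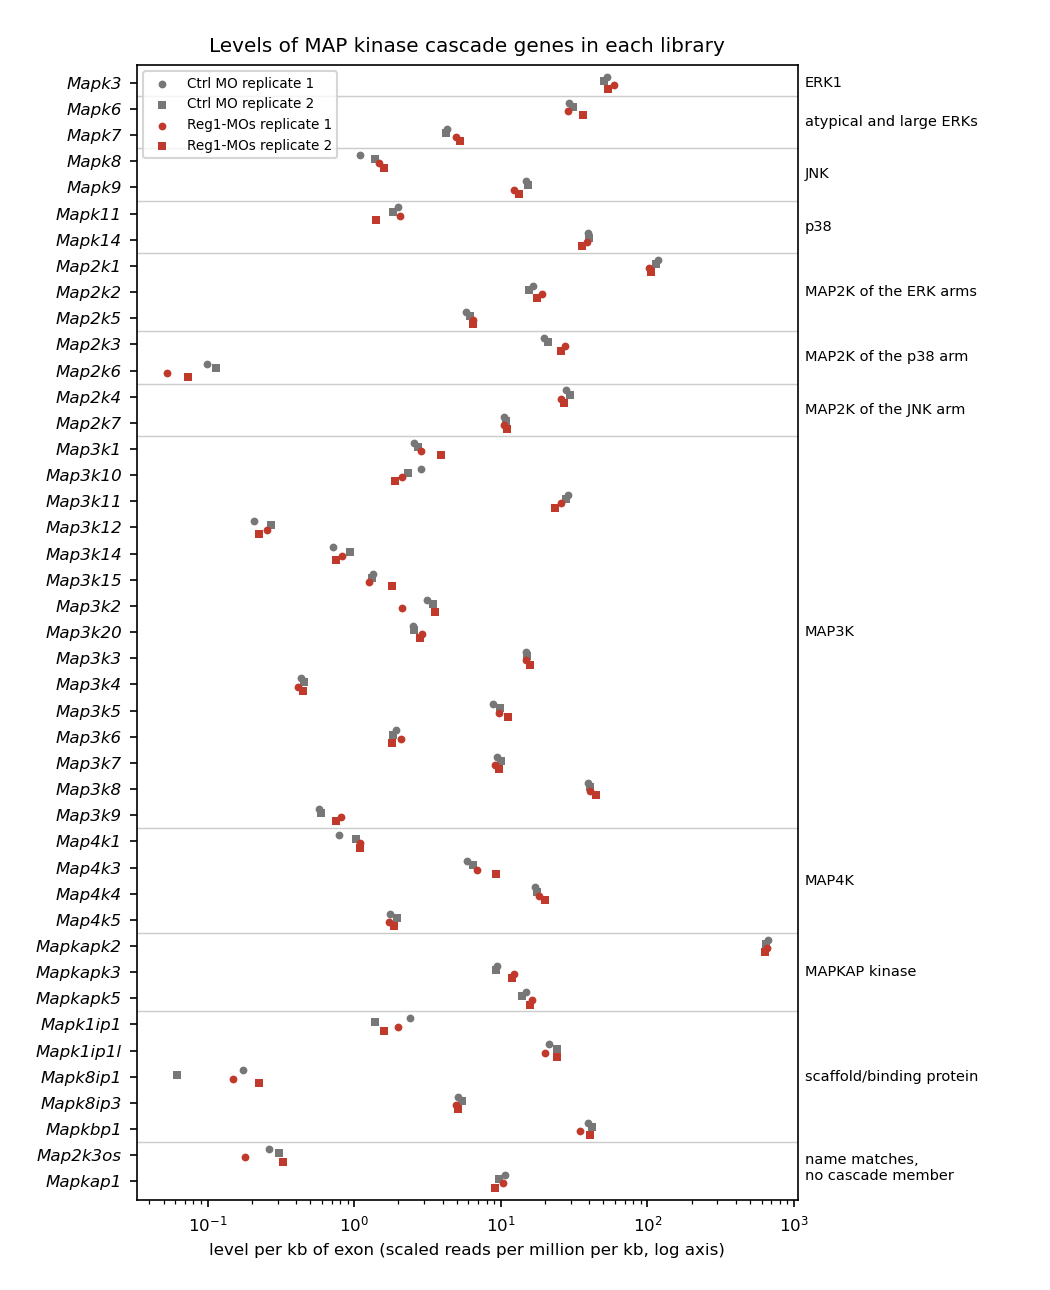
Level of the cascade genes reported singly, per kilobase of exon (horizontal log axis, scaled reads per kilobase), 1 point per library, grouped by role. Mapkapk2 lies far above the rest, Mapk9 lies above Mapk8 and Mapk14 above Mapk11 in each library, and Map2k6 is the lowest on the mean of the 4 libraries.

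Regnase-1 is known to cut at short stem-loops with a pyrimidine-purine-pyrimidine loop. The 3′ UTRs were therefore searched for a stem of 5 Watson-Crick pairs closed by such a loop of 3 bases. Only 1 protein-coding transcript per gene was searched, the one with the longest coding sequence. Other annotated 3′ UTRs of a gene were not covered, and some searched ones were very short (8 bases for Mapkbp1). Of the 42 cascade genes with a 3′ UTR found in this way, 9 held at least 1 such hairpin (21.4%), beside 22.2% of 10767 genes of the table. In the searched transcript Map2k3 held 1, Mapk9 held 3, and Mapkapk3 held none. They are shown, with the loop in capitals, for Map2k3, which rose, and for Mapk9, which had the lowest adjusted p of the cascade genes with a negative value. The positions of the Mapk9 hairpins are bases 175, 1369 and 2005 of its 3′ UTR, and that of Map2k3 is base 554.
Map2k3: ggacaCACugucc
Mapk9 at base 175: cagacUAUgucug
Mapk9 at base 1369: acgguCAUaccgu
Mapk9 at base 2005: ucuugUGCcaaga
The median log2 fold change was -0.04 for cascade genes with a hairpin and 0.04 for those without, and over the table -0.06 and -0.01. Genes with a hairpin had longer 3′ UTRs, with medians of 2448 against 1125 bases among cascade genes and 2109 against 760 in the table. A match of letters is not evidence that the stem forms or is cut.

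Genes that act on or after the cascade but fall outside the naming rule were taken from 8 lists, read beside the 12.2% of all genes that passed. Over all genes, 6043 of the 11111 log2 fold changes were negative and the median was -0.03. With no variance trend in the fit, 13 of the 16 list genes named below lost their call, the exceptions being Dusp4, Mink1 and Arrb1. Upstream, 1 of 19 RAS and RAF inputs passed. It was Nras, a small GTPase that activates RAF, which fell by 0.27 on the log2 scale (limma adjusted p = 0.031), a call lost without either Ctrl MO library or Reg1-MOs replicate 1. The list's median was -0.11, and 14 of its 19 genes had negative values. Of 13 partners of TAK1 and TPL2 and their LPS inputs, 1 passed. It was Ikbkg, encoding the IKK subunit NEMO, read 1220 and 1295 times in the Ctrl MO libraries and 1872 and 1753 times in the Reg1-MOs libraries, a log2 fold change of 0.57 (adjusted p = 0.0039, or 0.052 with no variance trend).

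Of 15 activators and regulators of MAP3Ks in the table, 3 rose. Mink1, also named Map4k6, is a MAP4K that the naming rule does not match. It was read 954 and 1063 times in the Ctrl MO libraries and 1658 and 1557 times in the Reg1-MOs libraries. Its log2 fold change was 0.71 (limma adjusted p = 0.0027). Gadd45g and Gadd45a, which bind and activate the MAP3K MTK1 (Map3k4), rose by 0.66 and 0.39 (adjusted p = 0.020 and 0.035). Gadd45g lost its call without Reg1-MOs replicate 1 and Gadd45a without any 1 library. The list's median was -0.08, with 10 of 15 values negative. Of 15 scaffolds and inhibitors, the arrestins Arrb1 and Arrb2, which can hold JNK and ERK modules, rose by 0.70 and 0.50 (adjusted p = 0.0039 and 0.014). Flna, an actin crosslinker that also binds MAP2Ks, fell by 0.46 on the log2 scale (adjusted p = 0.017). The Arrb2 call was lost without Reg1-MOs replicate 1, and that of Flna when either Ctrl MO replicate 2 or Reg1-MOs replicate 1 was left out.

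Downstream, 1 of 7 kinases acted on by MAP kinases rose, namely Rps6ka2, which encodes the ERK-activated kinase RSK3, by 0.76 (limma adjusted p = 0.014). Without Reg1-MOs replicate 2 its adjusted p was 0.052. Of 16 transcription factors phosphorylated by MAP kinases, Elk3 and Fos rose by 0.64 and 0.41 (adjusted p = 0.0091 and 0.041), and Myc fell by 0.46 on the log2 scale (adjusted p = 0.044). The other 13 did not pass, and the list's median was -0.16. The Fos and Myc calls were lost without any 1 library, and that of Elk3 without Reg1-MOs replicate 1.

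Dusp4, encoding a nuclear phosphatase that removes the activating phosphates from MAP kinases, had the largest change of the phosphatase list. It was read 113 and 145 times in the Ctrl MO libraries and 400 and 477 times in the Reg1-MOs libraries, a log2 fold change of 1.81 (SE 0.17, 95% interval 1.41 to 2.20; limma adjusted p = 0.0015), or 3.50-fold. Both Reg1-MOs libraries were far above both controls. Of the other phosphatases, Dusp6, which is specific for ERK, rose by 0.48 (adjusted p = 0.028), and Dusp2 fell by 0.34 on the log2 scale (adjusted p = 0.016). In all 3 of 18 passed, and the list's median was -0.11, with 12 values negative. Dusp6 lost its call on leaving out any library but Ctrl MO replicate 1, and Dusp2 without either Ctrl MO library or Reg1-MOs replicate 1. Of 10 genes known to be induced by ERK as feedback or early response, 3 rose, namely Dusp4, Dusp6 and Ier3, the last by 0.52 (adjusted p = 0.026, lost on leaving out either Ctrl MO replicate 2 or Reg1-MOs replicate 1). That list's median was 0.22, with 4 of its 10 values negative, down to -0.42. Dusp4 and Dusp6 are in both lists, so these counts are not separate.

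**Figure D5:**
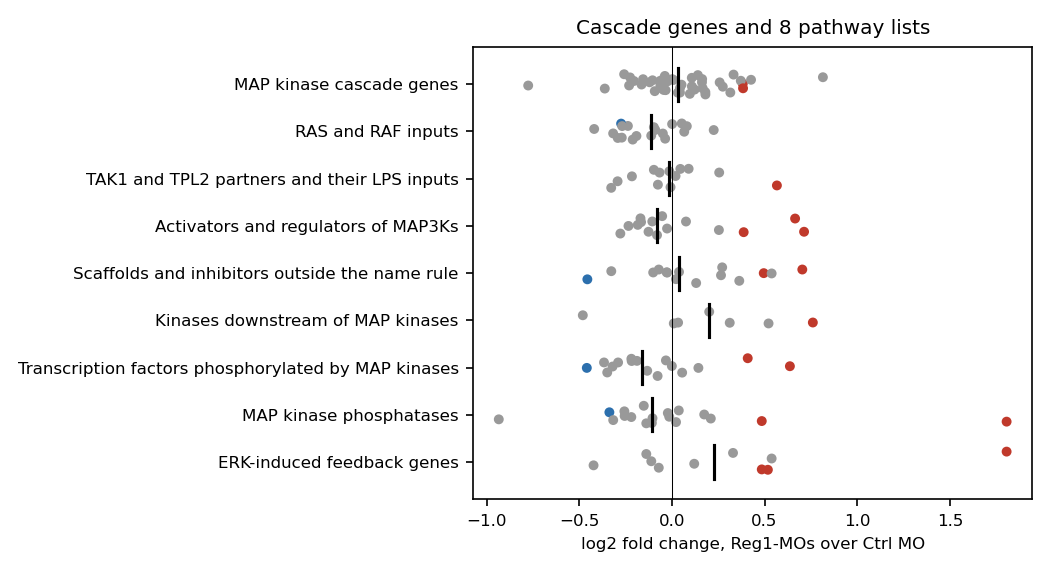
Log2 fold change (horizontal axis, Reg1-MOs over Ctrl MO) of each cascade gene and of each gene in 8 pathway lists, with the list's median as a black bar; red points rose and blue points fell at a limma adjusted p under 0.05. The 45 cascade genes lie close to 0 with a median of 0.03, and Dusp4, which is in both the phosphatase and the feedback list, lies farthest to the right at 1.81.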

How the data were processed

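Directional poly(A) RNA libraries (NEBNext Ultra II) were sequenced with a NextSeq 500 instrument, as the labels' protocols state. The submitters' processing notes name cutadapt, FastQC, HISAT2 1.6.3 and mm10. How reads were counted, with which strand setting, filtered and scaled is not given in the sources used here. A single table of log2 values with a column for each library was deposited. In each column the values were log2 of (reads + 0.5) times a constant, so reads were recovered, within 0.01 of a whole number for 100% of genes. Of 11090 identifiers 11088 were in GENCODE M21, which gave positions and exon lengths, taken over all annotated exons of a gene.

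Differences were tested with limma 3.58.1 in R 4.3.3 (eBayes with trend), two-sided, on the deposited values of all 11111 genes, with no term but group and Benjamini-Hochberg adjustment over them at 0.05. The fit was also run on simulated counts in which every gene and library had the same extra spread. Real replicates differed more in Reg1-MOs than in Ctrl MO, so that run does not bear on the calls here. A positive fold change means a higher level with Reg1-MOs.

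The members, the lists and the rule for named genes were chosen with earlier results of these data known. The rule named every cascade gene past the threshold, 14 cascade genes whatever their values, and in each list every gene past the threshold; other cascade genes with values were named after these were seen. Values of 2 cascade genes are not reported here singly, but all counts and medians include them. Alternatives were no variance trend, voom weights on recovered reads, quantile normalization, equal totals, an offset of 8 reads, a mean of at least 50 reads, a replicate block, and each library left out in turn.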

Additional observations from a re-analysis of the deposited data

How the results depend on the processing

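Of the 2 calls of higher cascade genes, both held with voom weights, quantile normalization, equal totals, an offset of 8 reads and the filter of 50 reads, all with 0 lower. Without the variance trend there were 0 higher (adjusted p = 0.10 for Map2k3 and 0.079 for Mapkapk3), and among all genes 195 rose and 182 fell in place of 691 and 670. Of the 16 genes of the pathway lists that passed, Dusp4, Mink1 and Arrb1 kept their calls without the trend and the other 13 lost them (adjusted p = 0.052 for Ikbkg to 0.13 for Nras); Myc also lost its call with equal totals (0.0505). Leaving out 1 library at a time, which leaves a lone library assumed to vary like the other group, gave 0 to 2 cascade genes higher and 0 to 1 lower, and 249 to 530 and 258 to 860 genes over the table. The cascade genes with a mean under 50 reads were Map2k6, Mapk8ip1, Map2k3os and Map3k12.

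Among the cascade genes reported singly, signs changed on leaving out 1 library only for some that had not passed. Their log2 fold changes then ran from -0.0583 to 0.27 for Mapk6, -0.43 to 0.10 for Mapk11, -0.0213 to 0.0245 for Map2k7, -0.19 to 0.20 for Map3k12, -0.25 to 0.14 for Map3k14, -0.0835 to 0.445 for Map3k15, -0.63 to 0.115 for Map3k2, -0.0920 to 0.0152 for Map3k4, -0.0552 to 0.16 for Map3k6, -0.10 to 0.0121 for Map3k7, -0.11 to 0.0449 for Map4k5, -0.43 to 0.37 for Mapk1ip1, -0.18 to 0.0892 for Mapk1ip1l, -0.66 to 0.20 for Map2k3os and -0.15 to 0.0236 for Mapkap1. Quantile normalization gave 0.0167 for Map3k4 and 0.0451 for Mapk1ip1. The cause was not tested.

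With replicate number as a block, 7 cascade genes were higher (Map2k2, Map2k3, Map3k1, Map4k3, Mapk7, Mapk8 and Mapkapk3) and 5 lower (Map2k1, Map3k10, Map3k11, Map3k2 and Mapk9), beside 1532 and 1891 genes over the table. The labels do not say that a number marks a shared culture or mouse. The deviations of replicate 1 from its group mean correlated with r = 0.31 across 9476 genes between the groups, which with 2 numbers does not establish a pairing, and genes are not independent replicates.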
